A study of Mus musculus with 30 samples.

Results

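The 6 genes Rny1, Rny3, Rn7sk, Rmrp, Rpph1 and Vaultrc5 encode short structured RNAs, and they were taken by symbol from the GENCODE vM21 annotation. They account for 7 of the 55487 gene identifiers in the deposited counts, because Rmrp is annotated under 2 identifiers. They were chosen by their kind of RNA and with earlier read values of these embryos known, null embryos included, and which of those values were used was not recorded. Every comparison of null with het or wild-type embryos is therefore given for these genes as a description with no test, and so is the change of the null over het difference between stages. The stage comparisons carry a test, but whether stage values played a part in the choice is not known either.

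RNA polymerase III transcribes genes of this kind, and its transcripts end in a short run of U encoded by T in the gene. Y RNAs (Rny1 and Rny3) are bound by the Ro protein and by La, which holds the 3′ U run of new polymerase III transcripts. Rn7sk encodes 7SK, the scaffold of the particle that holds the transcription elongation factor P-TEFb in an inactive state. Rmrp is the RNA of RNase MRP, an endoribonuclease of ribosomal RNA processing. Rpph1 is the catalytic RNA of RNase P, which trims the 5′ leader from precursor tRNAs, and the 2 enzymes share most of their proteins. Vaultrc5 encodes a vault RNA of the cytoplasmic vault particle. DIS3 is a catalytic ribonuclease of the nuclear RNA exosome, the complex that degrades RNA from its 3′ end.

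RNA was measured in 23 single mouse embryos collected from matings of Dis3 heterozygotes, so all embryos came from mothers with a single functional copy. The E2.5 group held 6 wild-type, 2 het and 4 null embryos and the E2.75 group 3, 5 and 3. The null allele was made with CRISPR/Cas9 and lacks exons 3 to 5 of Dis3, and the DNA left over from each embryo gave its genotype. RNA was captured with oligo-dT beads after ERCC spike-in RNA had been added, and the cDNA was amplified before sequencing. Peaks of POU6F1, a POU-domain transcription factor, came from 2 replicates of mouse embryonic stem cells transfected with Pou6f1-mCherry. None of the 6 RNAs carries a long poly(A) tail as its usual mature form, so a read count reflects both how much of an RNA was present and which share of it the beads captured, and these cannot be told apart. In whole embryos, fewer cells and less RNA per cell cannot be told apart either.

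The Y RNA genes are printed because Rny1 and Rny3 are related in sequence and their read counts stood very unequally between genotypes. Both lie outside other annotated genes on chromosome 6 (GRCm38, sequence from RefSeq GRCm38.p6), Rny1 at chr6:47788069-47788180 on the minus strand (112 bases) and Rny3 at chr6:47781624-47781725 on the plus strand (102 bases). The capitals mark the T run that ends each gene:
Rny1: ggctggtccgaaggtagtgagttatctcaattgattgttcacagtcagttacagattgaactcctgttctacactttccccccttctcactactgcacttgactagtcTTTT
Rny3: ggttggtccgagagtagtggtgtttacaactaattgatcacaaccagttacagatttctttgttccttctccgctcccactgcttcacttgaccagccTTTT
The 2 sequences matched at 80 of 112 aligned columns (71.4%). Of the 32-base words in Rny1, 51 of 81 (63.0%) occurred at a single place in the genome, against 55 of 71 (77.5%) in Rny3.

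For Rpph1 and Rmrp the counts rest on only part of the gene, which is why these sequences are shown. The authors counted reads without regard to strand, and a read lying wholly in bases shared by exons of 2 genes was given to neither. Rpph1 (chr14:50807449-50807767, minus strand, 319 bases) shares 233 bases with the first exon of a transcript of Ccnb1ip1 on the same strand, and only 86 bases are its own. Its own bases are a stretch of 35 at the 5′ end (chr14:50807733-50807767) and a stretch of 51 at the 3′ end (chr14:50807449-50807499):
Rpph1 5′ part: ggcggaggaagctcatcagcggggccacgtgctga
Rpph1 3′ part: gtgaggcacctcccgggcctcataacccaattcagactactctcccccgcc
The 3′ stretch lies in an intron of Ccnb1ip1, so an unspliced Ccnb1ip1 read reaching it would be counted to Rpph1. Rmrp is annotated as a lincRNA of 281 bases (chr4:43492783-43493063, minus strand) and as a ribozyme of 271 bases inside it. The longer form has 10 bases of its own, 5 at each end and in capitals here, and the shorter form has 0:
Rmrp: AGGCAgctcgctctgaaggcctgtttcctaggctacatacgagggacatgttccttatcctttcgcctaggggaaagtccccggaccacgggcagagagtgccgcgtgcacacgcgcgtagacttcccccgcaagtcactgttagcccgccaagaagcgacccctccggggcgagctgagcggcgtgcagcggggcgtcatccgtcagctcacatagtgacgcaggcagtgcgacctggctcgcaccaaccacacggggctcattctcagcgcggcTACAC
A further exon of 124 bases, of a non-coding transcript of Ccdc107 on the other strand, lies within Rmrp. Both annotated forms of Rmrp could therefore gather few reads whatever the amount of RNA.

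**Figure D1:**
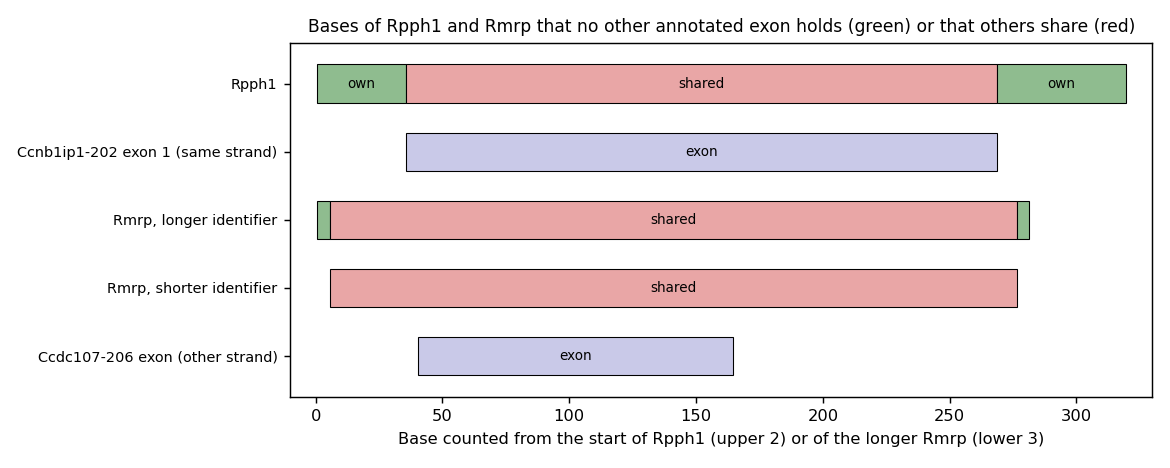
Map of the exon bases of Rpph1 and of both Rmrp identifiers, by base from the annotated start (x axis, in bases), with the overlapping exons of Ccnb1ip1 and Ccdc107. Own bases, of which a read must reach at least 1 to be counted to the gene, make up 86 of 319 bases in Rpph1, 10 of 281 in the longer Rmrp and 0 of 271 in the shorter.

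Rn7sk (chr9:78175303-78175633, minus strand, 331 bases) and Vaultrc5 (chromosome 18, 36801866 to 36802008, plus strand, 143 bases) lie outside other annotated genes. Rn7sk has many near copies: only 83 of its 300 words of 32 bases (27.7%) occurred at a single place, and some occurred at 12. All 112 words of Vaultrc5 occurred at a single place, as did 277 of 288 in Rpph1 (96.2%).

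Reads assigned to genes numbered 1690192 to 14015980 per embryo, with a median of 8030848, and a floor of 3 reads corresponded to 0.214 to 1.77 CPM. CPM is the read count scaled to a common gene total, and all CPM below are after TMM scaling of the totals except where said. ERCC reads made up 2.06% to 7.44% of the sum of gene and ERCC reads. Dis3 lay at 18.0 to 147 CPM in wild-type, 30.4 to 59.2 in het and 0 to 21.5 in null embryos. The value of 18.0 came from the library labelled wild-type replicate 6 of E2.5, inside the range of the null embryos, and values without it follow where it bears on a result. Reads outside annotated exons were 32.3% to 43.9% of the total in null embryos and 20.99% to 33.4% in the others. Summed markers of preimplantation embryo lay at 4730 to 19078 CPM. All 6 were detected over the embryos together, but Zscan4d was at 0 in every E2.5 wild-type and E2.75 null embryo. The granulosa, oviduct, sperm and blood lists reached at most 18.9, 12.7, 3.66 and 5.72 CPM. Of these 4 lists, only Inha, Foxj1, Tnp1 and Hbb-bs were at 0 in every embryo. The granulosa, oviduct and sperm maxima were in E2.5 null embryos, and the blood maximum was in E2.5 wild-type. The granulosa, oviduct and sperm lists reached 1.55, 7.19 and 1.00 CPM in wild-type and 2.71, 10.3 and 0.742 CPM in het embryos.

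Rny1 was read clearly in all 7 null embryos and at most in traces in the other 16. The 4 E2.5 null embryos held 7.07, 17.7, 5.80 and 35.5 CPM of Rny1, from 68, 104, 19 and 151 reads. At E2.75 the null embryos held 35.5, 9.23 and 4.85 CPM, from 72, 18 and 35 reads. The lowest null embryo of either stage thus stood above 4 CPM, and the spread among null embryos was wide, with a high library in each stage. In the 6 E2.5 wild-type embryos Rny1 ranged from 0 to 0.411 CPM with a median of 0.305. The E2.5 het embryos lay at 0.369 and 0 CPM and the E2.75 wild-type embryos at 0.533, 0 and 0.203. All 5 E2.75 het embryos had 0 reads. No null embryo overlapped any other embryo, and the library labelled wild-type replicate 6 of E2.5 lay among the other wild-type libraries at 0.388 CPM.

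**Figure D2:**
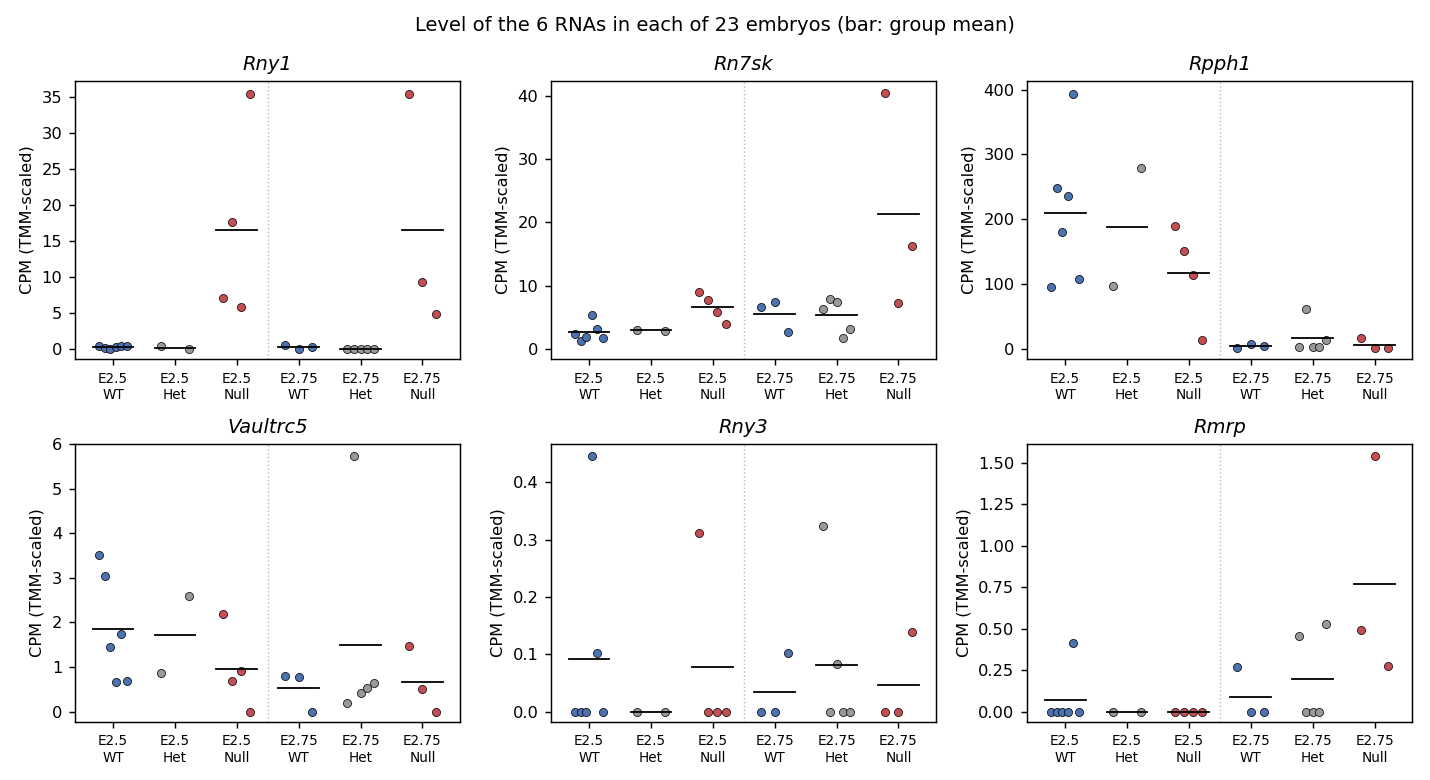
CPM of each of the 6 genes (y axis, 1 panel a gene) in every embryo (points), by stage and genotype (x axis), with the group mean as a bar. Rny1 sits at 4.85 CPM or more in all 7 null embryos and at 0.533 or less in the other 16, while Rpph1 is high at E2.5 and low at E2.75.

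Summed over embryos, Rny1 had 467 reads in the 7 null embryos, 3 in the 7 het and 20 in the 9 wild-type embryos. Relative to all gene reads, the null total was 269-fold the het total, with an exact 95% interval of 91.3 to 1307, and 52.8-fold the wild-type total (33.8 to 87.2). Such intervals, here and for Rny3 and Rmrp, and the floors below treat reads as independent, which amplified reads are not. They leave out the spread between embryos and are a description only. In the fit of 3 genotypes the log2 difference in Rny1 was 7.93 ± 1.17 (SE) for null over het and 5.92 ± 0.94 for null over wild-type. The former was 9.96 without het replicate 1 of E2.5, the embryo that held all 3 het reads, and the latter 6.02 without wild-type replicate 6 of E2.5. Among all 13415 genes in the fit, 3.67% were called higher and 2.06% lower in null than het, where a call is an adjusted p under 0.1 with a log2 difference beyond 1, and 3.66% and 1.59% over wild-type. Rny1 lay past these limits in both contrasts and Rn7sk over wild-type, and nothing is read from this, since null values were known when the genes were chosen. For E2.75 alone, where het embryos had no read, null embryos were at least 163-fold higher, from a pooled 11.7 CPM without TMM scaling against a floor of 3 reads, or 0.0720 CPM, over the het group. In that stage 2.51% of 14442 genes were called higher and 2.31% lower. For E2.5 alone the difference over het was 6.32 ± 1.89, and 5.30 to 10.00 on leaving out each embryo, in a comparison where 0% of 15904 genes were called higher and 0.0126% lower. Among the 13415 tested genes, 166 (1.24%) had every null embryo above every other embryo.

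Rny1 was also separate on the spike-in scale. Per 1000 ERCC reads, the null embryos held 0.0787 to 0.713 Rny1 reads and the others at most 0.0167. Scaled to ERCC totals in the fit, the log2 difference was 6.79 over het and 5.62 over wild-type, while the median of all genes in null over het moved to -1.08. The share of reads outside annotated exons was also higher in null embryos, as given above, and its part in the Rny1 result was not tested. Outside the null embryos Rny1 had at most 5 reads in an embryo and passed the filter on low counts through the null embryos, so het over wild-type and stage in wild-type embryos are given without a test. The het embryos held 3 reads and the wild-type embryos 20, and the latter fell as 16 at E2.5 and 4 at E2.75. Between stages in null embryos, Rny1 did not pass the test (-0.03 ± 1.19, adjusted p = 1.00 by edgeR).

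Rny3, the other Y RNA gene, had 16 reads in all, in 7 of 23 embryos. They fell as 4 reads in null, 6 in het and 6 in wild-type embryos, and 5 of the het reads came from 1 embryo. Relative to all gene reads, the Rny3 ratio of null to het was 1.15, with an exact 95% interval of 0.239 to 4.85, and the highest embryo was an E2.5 wild-type at 0.445 CPM. The genotypes overlapped throughout, and Rny3 did not pass the filter on low counts.

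Rn7sk was read in every embryo. At E2.5 the wild-type embryos ranged from 1.31 to 5.34 CPM with a median of 2.11, the het embryos held 2.95 and 2.88, and the null embryos 8.94, 7.65, 5.80 and 4.00. At E2.75 Rn7sk lay at 6.66, 7.35 and 2.74 CPM in wild-type, at 6.34, 7.84, 7.47, 1.77 and 3.17 in het, and at 40.4, 7.18 and 16.2 in null embryos. At E2.5 the null embryos overlapped the wild-type embryos, and at E2.75 all genotypes overlapped. The null embryo at 40.4 CPM stood well above all others.

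On the log2 scale Rn7sk differed by 1.47 ± 0.63 for null over het and by 1.83 ± 0.59 for null over wild-type. The latter ranged from 1.15 to 2.03 on leaving out each embryo, with the 1.15 found without null replicate 1 of E2.75, the embryo at 40.4 CPM. It was 1.42 ± 0.68 with ERCC scaling. Per 1000 ERCC reads the null range of 0.0468 to 0.812 Rn7sk reads overlapped the 0.0238 to 0.317 of the others. By stage, the null over het difference was 1.12 ± 1.20 at E2.5 and 1.98 ± 0.72 at E2.75. Rn7sk did not pass the edgeR test for het over wild-type (0.36 ± 0.58, adjusted p = 0.918), for stage in wild-type (1.08 ± 0.74, adjusted p = 0.451) or for stage in null embryos (1.66 ± 0.83, adjusted p = 0.314).

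Rpph1 was lower at E2.75 than at E2.5. The 6 E2.5 wild-type embryos held 95.4, 248, 180, 236, 394 and 107 CPM of Rpph1, a mean of 210 ± 110 (SD, n = 6). The 3 E2.75 wild-type embryos held 1.60, 7.35 and 4.05 CPM, from 6, 66 and 40 reads, a mean of 4.33 ± 2.89 (SD, n = 3). The groups did not overlap, and 8.30% of tested genes had all E2.5 wild-type embryos above all E2.75 wild-type embryos. In the fit of 6 groups the log2 difference in Rpph1 was -5.55 ± 1.17, or 46.7-fold lower at E2.75, with an adjusted p of 0.00713 after Benjamini-Hochberg adjustment in the quasi-likelihood test of edgeR. In that comparison 3.64% of 18677 genes were called lower and 3.74% higher, and Rpph1 was called while Rn7sk and Vaultrc5 were not. An exact two-sided permutation test over the 84 assignments of the 9 wild-type embryos gave p = 0.0238, the smallest this design allows. Without the library labelled wild-type replicate 6 of E2.5 the difference was -5.68 with an adjusted p of 0.00596, and leaving out each embryo in turn gave -6.14 to -5.19, each still called. With ERCC scaling, under which the median of all genes moved to 0.89, the Rpph1 difference was -4.63 with an adjusted p of 0.0138 by edgeR.

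Het and null embryos were also low in Rpph1 at E2.75. The het embryos held 97.3 and 279 CPM at E2.5 and 2.59, 60.9, 2.49, 2.66 and 12.9 at E2.75, so these groups did not overlap either (10.4% of genes separated this way in het, 3.15% in both het and wild-type). The null embryos held 190, 150, 114 and 14.3 CPM at E2.5 and 17.3, 1.54 and 1.11 at E2.75. The lowest E2.5 null embryo lay just under the highest E2.75 null embryo. In null embryos the log2 difference was -4.28 ± 1.15, or 19.5-fold lower, with an adjusted p of 0.0576 by edgeR, where 1.77% of genes were called lower and 1.24% higher. That call was lost without E2.5 null replicate 2 (adjusted p = 0.101), E2.5 null replicate 3 (0.103), E2.75 null replicate 2 (0.236) or E2.75 null replicate 3 (0.227), all by edgeR. The exact two-sided permutation test over 35 assignments gave p = 0.114, where 0.0571 is the smallest possible. By genotype, Rpph1 differed by 0.10 ± 1.08 for null over het and -1.01 ± 1.04 for null over wild-type, and het over wild-type gave -1.11 ± 1.04 with an adjusted p of 0.842 by edgeR. Most het embryos were of E2.75 and most wild-type embryos of E2.5, and with stage as a term the het over wild-type difference was 0.83 and the null over het difference -1.31. In the fit with no stage term, the null over het difference of 0.10 became 1.24 without het replicate 2 of E2.5 and -0.94 with ERCC scaling.

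The neighbors of Rpph1 moved less. Ccnb1ip1, a ubiquitin ligase gene of meiotic crossing over that shares bases with Rpph1, lay at 60.3 to 129 CPM in E2.5 and 41.1 to 53.5 CPM in E2.75 wild-type embryos. Its log2 difference was -1.09 ± 0.39 with an adjusted p of 0.111 in wild-type and 0.34 ± 0.41 with an adjusted p of 0.748 in null embryos (edgeR). Parp2, a poly(ADP-ribose) polymerase gene that starts next to Rpph1 on the other strand, gave -0.40 ± 0.33 with an adjusted p of 0.550 in wild-type and -0.26 ± 0.36 with an adjusted p of 0.788 in null embryos (edgeR). The summed oocyte markers Gdf9, Bmp15 and Zp3, all 3 detected in each group, were also lower at E2.75, at 6.46 to 15.2 CPM against 18.1 to 52.3 CPM at E2.5 in wild-type. The summed preimplantation markers were 4730 to 5297 CPM at E2.75 against 9888 to 19078 at E2.5 in wild-type. That sum does not describe all 6 genes, of which 1 was called lower and 0 higher in wild-type by edgeR. Their median log2 difference was -0.06 in wild-type and 0.90 in null embryos. The part of either marker list in the Rpph1 result was not tested.

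**Figure D3:**
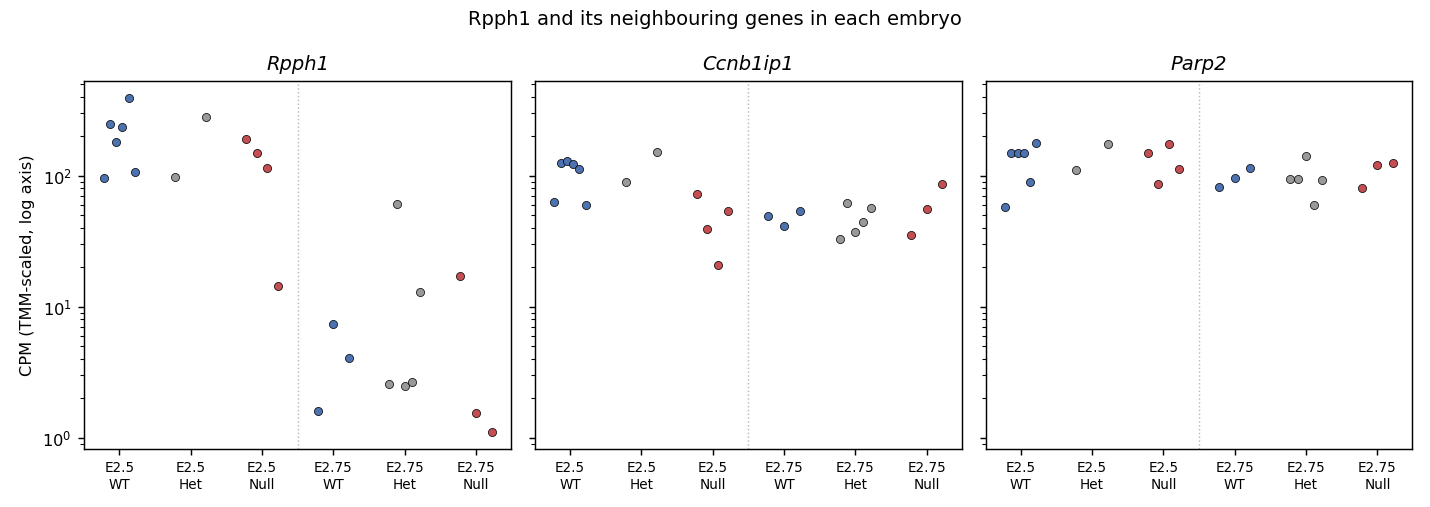
CPM on a log axis (y axis) of Rpph1 and of its neighbors Ccnb1ip1 and Parp2 in every embryo (points), by stage and genotype (x axis). Rpph1 falls from 95.4 to 394 CPM in E2.5 wild-type embryos to 1.60 to 7.35 at E2.75, while Ccnb1ip1 lies at 60.3 to 129 and 41.1 to 53.5 CPM in the same groups.

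Rmrp, the RNA of the related RNase MRP, had too few reads for a comparison. Its longer identifier gathered 23 reads in 7 embryos, 5 in wild-type, 12 in het and 6 in null embryos. The null to het ratio, relative to all gene reads, was 0.863 with an exact 95% interval of 0.266 to 2.48, and no group stood apart. The shorter identifier had 0 reads in all 23 embryos, as its 0 own bases require. Neither passed the filter on low counts, so 4 of the 7 identifiers were tested.

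Vaultrc5 was low in all groups. At E2.5 it ranged from 0.667 to 3.51 CPM (median 1.60) in wild-type, lay at 0.860 and 2.60 in het, and at 2.18, 0.680, 0.916 and 0 in null embryos. At E2.75 the values were 0.799, 0.780 and 0 in wild-type, 0.194, 5.73, 0.415, 0.532 and 0.633 in het, and 1.48, 0.513 and 0 in null embryos. All groups overlapped. On the log2 scale Vaultrc5 differed by -0.88 ± 1.03 for null over het and -0.76 ± 0.98 for null over wild-type. On leaving out each embryo these ranged from -1.41 to -0.086 and from -1.28 to -0.46. In edgeR it did not pass for het over wild-type (0.12 ± 0.95, adjusted p = 0.990), stage in wild-type (-1.81 ± 1.60, adjusted p = 0.578) or stage in null embryos (-0.64 ± 1.67, adjusted p = 0.921).

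Of the 3 members tested for het over wild-type (Rn7sk, Rpph1 and Vaultrc5) none was called, and none had an unadjusted p under 0.05 or was called by DESeq2. Without wild-type replicate 6 of E2.5 their log2 differences were 0.26, -1.15 and 0.03, and none was called. In this comparison edgeR called 0% of 13415 genes, 934 had an unadjusted p under 0.05 and DESeq2 called 65. The change of the null over het difference from E2.5 to E2.75, as a description, was 3.55 ± 1.60 for Rny1, 0.81 ± 1.22 for Rn7sk, -0.67 ± 1.46 for Rpph1 and -0.37 ± 2.35 for Vaultrc5. For that change edgeR called 0% of 18677 genes, 1234 had an unadjusted p under 0.05 and DESeq2 called 81. The Rny1 value rests on the 3 reads of het replicate 1 of E2.5, and without that embryo its SE was 58.5. Without het replicate 2 of E2.75 the change was 0.90 for Rpph1 and 1.30 for Vaultrc5, and without null replicate 1 of E2.75 it was -0.016 for Rn7sk and -2.94 for Rpph1.

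Levels were compared between genes per kb of annotated gene, in CPM per kb, and neighbors in an order are said not to differ beyond their spread where their means ± SD overlap. In E2.5 wild-type embryos the order was Rpph1 at 658 ± 345 (SD), Vaultrc5 at 12.9 ± 8.36, Rn7sk at 7.91 ± 4.49 and Rny1 at 2.34 ± 1.51, and of these neighbors only Rpph1 and Vaultrc5 differed beyond their spread. In E2.75 wild-type embryos it was Rn7sk at 16.9 ± 7.52, Rpph1 at 13.6 ± 9.05, Vaultrc5 at 3.68 ± 3.19 and Rny1 at 2.19 ± 2.3998, and no neighbors differed beyond their spread. In E2.5 null embryos Rpph1 stood at 368 ± 236, Rny1 at 147 ± 123, Rn7sk at 19.9 ± 6.52 and Vaultrc5 at 6.61 ± 6.38, and only the last pair differed beyond its spread. In E2.75 null embryos Rny1 stood first at 148 ± 148, before Rn7sk at 64.2 ± 51.9, Rpph1 at 20.8 ± 28.8 and Vaultrc5 at 4.64 ± 5.25, and neighbors in this order did not differ beyond their spread. Reads lying wholly in the shared bases of Rpph1 are missing from its values.

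Genes of the proteins that bind these RNAs, and of the polymerase III machinery, were compared from 6 lists. Of 67 listed genes, 66 were tested, and in null over het 1 was called higher and 0 lower, against 3.67% and 2.06% of all genes, so the share was near the background. The called gene was Snapc3, a subunit of the SNAPc complex that binds the promoters of polymerase III genes of the Rn7sk type, at a mean of 62.7 CPM in het, 109 in wild-type and 208 in null embryos (log2 1.73 ± 0.42, adjusted p = 0.0159, edgeR). With ERCC scaling, which moved the all-gene median to -1.08, 0 of the 66 were called higher and 30 lower, against 33.4% of all genes called lower, and Snapc3 gave 0.49 with an adjusted p of 0.261 (edgeR). The median log2 difference was 0.17 for the Ro, La and 3′ end factors, 0.24 for the 7SK particle, 0.08 for the RNase MRP and RNase P proteins, -0.69 for the 3 vault proteins, 0.06 for polymerase III subunits and 0.08 for polymerase III factors, against 0.02 for all genes. None of the 66 was called by edgeR for het over wild-type.

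Between stages in wild-type embryos, 8 of the 66 fell, against 3.64% of all genes, and Gtf3c1, a subunit of TFIIIC, rose (1.29 ± 0.39, adjusted p = 0.0521, edgeR). Of the 11 RNase MRP and RNase P proteins 2 fell, Rpp21 from a mean of 168 to 53.9 CPM (-1.64 ± 0.33, adjusted p = 0.00457) and Rpp38 from 136 to 46.1 CPM (-1.57 ± 0.41, adjusted p = 0.0262, both edgeR), and the list median was -0.44. Rpp30 gave -0.95 with an adjusted p of 0.0203 in edgeR, short of the limit on size. Of 17 tested polymerase III subunits 4 fell, namely Polr3k (-1.21), Polr2f (-1.11), Polr2k (-1.66) and Polr2l (-1.80), the last 3 shared with other RNA polymerases. Hnrnpa1, a 7SK-binding protein gene (-1.26), and Snapc5 (-1.45) completed the 8, and these 6 had adjusted p of 0.0130 to 0.0613 in edgeR. These directions depended on scaling: with ERCC totals, which moved the all-gene median to 0.89, 20 of the 66 were called higher, against 17.2% of all genes, and 0 lower, and Rpp21 and Rpp38 gave -0.63 and -0.55 and were not called, whereas Rpph1 was still called lower. Without wild-type replicate 6 of E2.5, 2 of the 66 were called higher and 9 lower, 3 of them RNase MRP and RNase P proteins. In null embryos 1 of the 66 was called higher and 2 lower, against 1.24% and 1.77% of all genes. Gtf3c1 rose (1.65, adjusted p = 0.0522) and Polr3k (-1.90, adjusted p = 0.0132) and Snapc3 (-1.61, adjusted p = 0.0965) fell in edgeR. With ERCC totals 9 of the 66 were called higher in null embryos, against 10.5% of all genes, and 0 lower. Polr3k and Snapc3 then gave -0.93 and -0.63 and were not called.

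**Figure D4:**
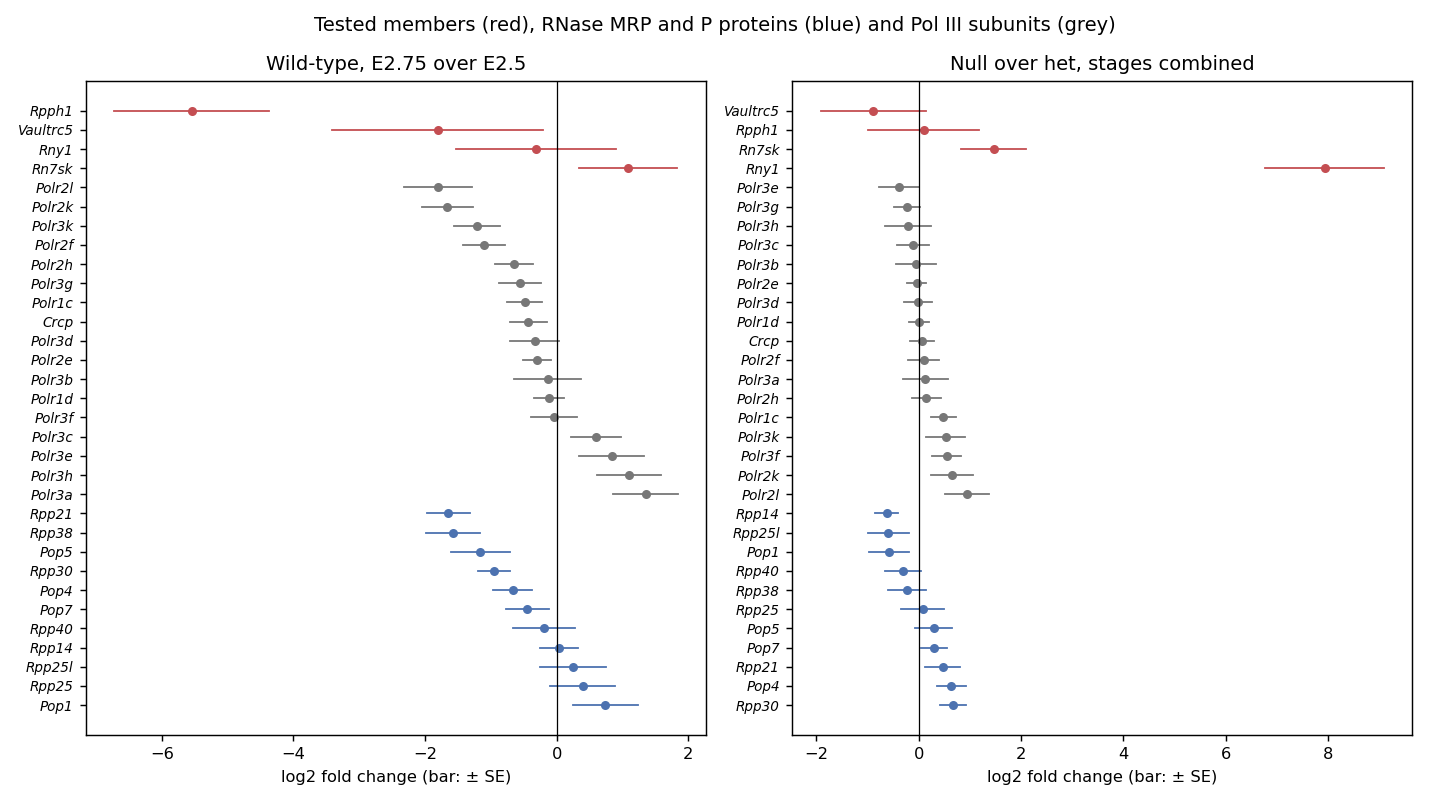
Log2 differences with SE bars (x axis) for the tested members, the RNase MRP and RNase P proteins and the polymerase III subunits, for E2.75 over E2.5 in wild-type embryos and for null over het embryos. Rpph1 at -5.55 lies far from Rpp21 at -1.64 in the stage panel, and Rny1 at 7.93 lies far from all others in the genotype panel.

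Among 14 other structured RNAs listed, 12 symbols were found in the files. Rn7s1 and Rn7s2 of the signal recognition particle, Rnu6, Rn5s, Rnu7 and Rnu11 had 0 reads, and Terc, Rprl1, Rprl2 and Rprl3 lay under 1 CPM on average. Of the 75 Terc reads, 68 were in null embryos. At E2.5 Terc lay at 1.65 to 2.89 CPM in null embryos and at most at 0.246 in the others. At E2.75 it ranged from 0 to 3.59 CPM in null embryos and reached 0.904 in het and 0 in wild-type embryos. Rnu12, the U12 RNA of the minor spliceosome, resembled Rny1 in where it was read, with 2.08, 17.2, 5.50 and 28.2 CPM in E2.5 null, 0.986, 1.03 and 0.277 CPM in E2.75 null and 2 reads in all other embryos together, but it did not pass the filter in the genotype fit. Bc1, a neuronal polymerase III RNA, differed by 1.55 ± 0.87 for null over het (adjusted p = 0.373, edgeR), with an E2.75 null embryo at 75.4 CPM. By annotated class, 2 of 5 tested misc_RNA genes (Rny1 among them), 4 of 8 snRNA and 3 of 19 snoRNA genes were called higher in null over het. So were 1 of 5 scaRNA and 0 of 2 ribozyme genes, and 0 were called lower, against 3.67% and 2.06% of all genes. Such genes can pass the filter on low counts through the null embryos alone, so these counts are a description.

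The genes whose pattern over the 23 embryos was most like the mean log2 CPM of the 4 tested members were Uqcc3, Eif2s2, 4930444P10Rik, Rpl32 and Tma7, with Pearson r of 0.89, 0.86, 0.85, 0.85 and 0.84. The r of the deviations from the 6 group means was 0.77, 0.79, 0.53, 0.80 and 0.62, and the values share library and depth. Members were not alike among themselves: r was 0.65 between Rpph1 and Vaultrc5 and -0.04 between Rny1 and Rpph1.

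The upstream sequences of Rmrp and Rpph1 are shown because POU6F1 peaks reached into them in both ChIP replicates. The upstream summits of Rmrp and, in replicate 1, of Rpph1 lay beyond the stretches shown. The motifs searched on both strands were the octamer ATTTGCAT, a sequence POU factors are known to bind, in the 250 bases before the start, and TATA starting 35 to 20 bases before it. Capitals mark matches, in the 250 bases before Rmrp (chr4:43493064-43493313) and in the 73 bases between Rpph1 and the start of Parp2 (chr14:50807768-50807840), both on the minus strand:
Rmrp upstream: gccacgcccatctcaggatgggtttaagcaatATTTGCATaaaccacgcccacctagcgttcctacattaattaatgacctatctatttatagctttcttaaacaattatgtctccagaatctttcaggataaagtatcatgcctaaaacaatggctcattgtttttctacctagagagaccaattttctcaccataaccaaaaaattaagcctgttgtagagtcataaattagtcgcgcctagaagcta
Rpph1 upstream: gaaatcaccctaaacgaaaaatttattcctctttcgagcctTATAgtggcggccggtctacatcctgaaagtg
The octamer began 218 bases before Rmrp and, as ATGCAAAT, 100 bases before Rpph1, beyond the stretch shown, and 526 of 32851 RefSeq promoters (1.60%) held it. TATA was found before Rny3, Rn7sk, Rpph1 and Vaultrc5 and in 1668 promoters (5.08%), and no motif was found before Rny1. A match is only a match of letters.

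POU6F1 peaks lay within 1 kb of the start in both replicates for 2 of the 6 genes, Rmrp and Rpph1. Each replicate has 2 deposited peak lists, the first called against IgG and the second against anti-mCherry precipitates of cells transfected with mCherry alone, by the numbering that the study's supplement gives. The labels name a single library of each control, so the replicates may share their controls and need not be independent on that side. In the first list of each replicate 23.26% of 55227 annotated genes had such a peak, and in the second 7.136%, while among 584 misc_RNA and ribozyme genes the shares were 5.479% and 1.027%. At Rmrp the summits stood 310 bases before the start in replicate 1, with 22.97-fold and 11.3-fold enrichment over control in the 2 lists, and 289 and 295 bases before it in replicate 2, with 11.2-fold and 4.85-fold. These summits were 4 to 10 bases from a start of Ccdc107, so the peak cannot be told apart from a peak of that gene. Further summits lay 150 and 153 bases into Rmrp in replicate 1 (16.4-fold and 12.2-fold) and 128 bases into it in the first list of replicate 2 (4.84-fold). They were 13, 10 and 35 bases from a start of Ccdc107, so these peaks cannot be told apart from peaks of that gene either. At Rpph1 the summits stood 143 bases upstream in replicate 1 (18.5-fold and 9.23-fold) and 64 bases upstream in replicate 2 (8.31-fold and 5.26-fold). They were 15 and 10 bases from a start of Parp2, so these peaks cannot be told apart from peaks of that gene. A further summit lay 239 bases into Rpph1 in the first list of replicate 1 (4.98-fold), 204 bases from a start of Ccnb1ip1.

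In replicate 1 alone, Vaultrc5 had a summit 130 bases upstream (14.2-fold and 12.1-fold) and Rn7sk had summits 331 and 310 bases upstream (8.04-fold and 3.95-fold). Their nearest coding starts, of Zmat2 and Gsta4, were 6111 and 7141 bases from the member starts. Counting a peak in either replicate gave 4 of 6 members, against 36.84% and 29.06% of all genes. Rny1 and Rny3, 25184 and 31740 bases from the nearest coding start, of Pdia4, had no peak within 1 kb in any list. The lists held 82694 and 31348 peaks in replicate 1 and 24524 and 3630 in replicate 2.

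**Figure D5:**
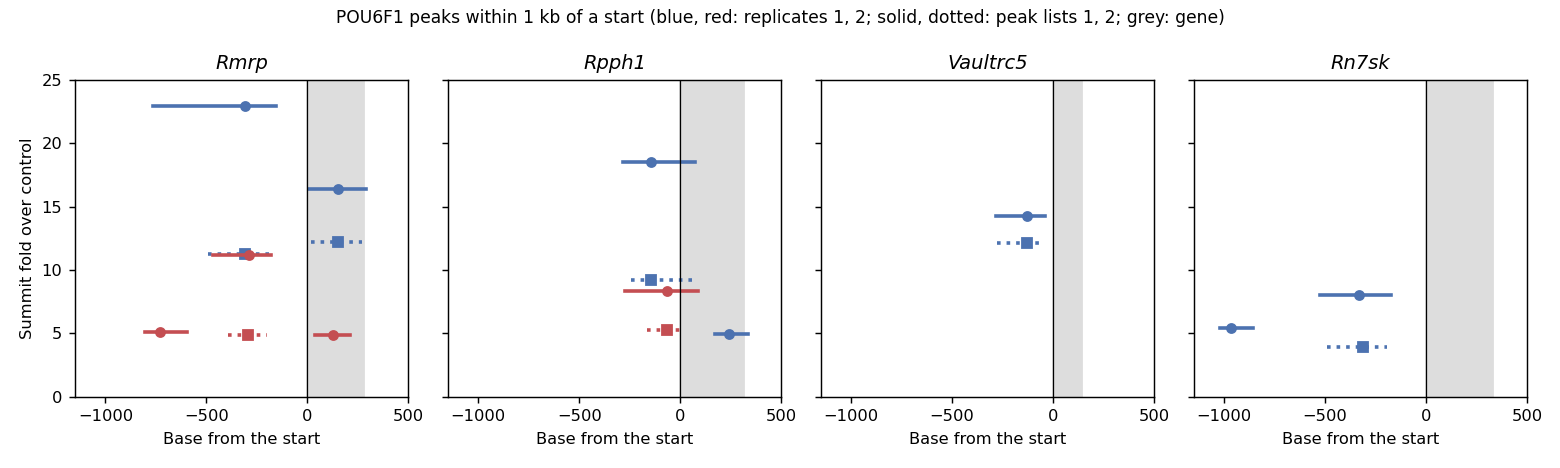
Spans (bars) and summits (points) of POU6F1 peaks near Rmrp, Rpph1, Vaultrc5 and Rn7sk in embryonic stem cells, by base from the start (x axis) and fold enrichment over control (y axis), for both lists of both replicates. Rmrp and Rpph1 have peaks in both replicates, up to 22.97-fold and 18.5-fold, and Vaultrc5 and Rn7sk in replicate 1 only.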

How the data were processed

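Per the labels, 23 single embryos were sequenced and assigned to stage, genotype and replicate, which are separate embryos. The authors used cutadapt 3.4 for trimming, STAR 2.7.8a for alignment to GRCm38 and HTSeq 0.11.4 for counting (intersection-strict, unstranded). The deposited unit is the raw count per gene for 55487 identifiers and 92 ERCC spike-ins. For ChIP-seq the authors used Bowtie2 2.4.4 and MACS2 2.2.7.1. The deposited peak lists hold a score, the fold enrichment over control as a ratio, and −log10 of p and q values. Read depth of the peaks is not given in the sources used here.

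The 6 genes and all lists were chosen with earlier results of these data known. Counts were fitted with edgeR 4.0.16 (R 4.3.3; TMM, filterByExpr, quasi-likelihood test, Benjamini-Hochberg over all genes tested) in a model of 3 genotypes over all 23 embryos, in models of each stage, or in a model of 6 stage-by-genotype groups. Calls required a log2 fold change beyond 1 and an adjusted p below 0.1. Level correlations used log2 CPM with a prior count of 2. Alternatives were DESeq2 1.42.0, other scalings, no filter, a stage term, a replicate block and leaving out each embryo. The fits were tested on simulated data, where most 4-fold changes went uncalled and 0 were called in the wrong direction. For null over het, 43% of 4-fold and 85% of 16-fold changes were called, and for het over wild-type 45.5% and 87%. For stage these shares were 27% and 50% in wild-type and 23% and 45.5% in null embryos. Named genes are the 6 members, listed genes called in a comparison with at most 4 others per list, overlapping genes and nearest coding starts, the 5 genes of most similar pattern, other structured RNAs with a mean over 1 CPM, and Dis3. The lists were partners (Ro, La and 3′ end factors, 7SK particle, RNase MRP and RNase P, vault, polymerase III subunits and factors), other structured RNAs and cell type markers. Reads outside annotated features and ambiguous reads, 20.99% to 43.9% and 1.89% to 2.73% per library, were left out of totals. No pair of embryos of the same group agreed within sampling noise. Sequences and starts came from RefSeq GRCm38.p6 and GENCODE vM21.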

Additional observations from a re-analysis of the deposited data

Results flagged for a closer look

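In the 5 E2.75 het embryos, replicate 2 stood apart from the others in Rpph1, at 60.9 CPM, with a gap to the next embryo of 0.822 of the whole range. The same embryo stood apart in Vaultrc5, at 5.73 CPM, with a gap of 0.921 of the range. These are 2 of 11 such checks on the members, of which chance marks about 1 in 20, and both come from 1 embryo. Without it the Rpph1 interaction of genotype and stage changed from -0.67 to 0.90 on the log2 scale, and that of Vaultrc5 from -0.37 to 1.30. The cause was not tested.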

How the results depend on the processing

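Member counts past the limits are a description where null embryos are compared with others. The count was 1 for null over het and 2 by DESeq2, 0 at E2.5 and 1 by DESeq2, and 1 at E2.75 and 2 by DESeq2. For null over wild-type it was 2, and 1 with ERCC scaling, with only the 2 genotypes compared or with the replicate block, and 1 to 2 on leaving out each embryo. For stage in null embryos it was 1, and 2 by DESeq2 or ERCC scaling, with Rn7sk as the added gene (log2 1.76 with adjusted p = 0.0557 by DESeq2, 2.43 with adjusted p = 0.0992 by edgeR), and 0 to 1 on leaving out each embryo. Partner genes called in null over het numbered 1, and 2 by DESeq2, 30 with ERCC scaling and 1 to 2 on leaving out each embryo. Members with a peak numbered 2, and 4 with a peak in either replicate. Other counts of members and partners held in 129 of the alternatives run and moved in the 25 covered here.

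Several directions turned. For null over het Rpph1, at 0.10, gave -1.31 with a stage term, -0.94 with ERCC scaling and -0.39 to 1.24 on leaving out embryos. On leaving out embryos at E2.5 it gave -1.26 to 0.17 and Vaultrc5 -1.72 to 0.05, and at E2.75 Rpph1 gave -3.70 to 0.35. Rn7sk at E2.5 gave -0.089 with ERCC scaling. For het over wild-type the members that turned, none called, were Rn7sk at -0.052 and Rpph1 at 0.83 with a stage term, and Vaultrc5 at -0.34 with the replicate block and -0.68 to 0.42 on leaving out embryos. For stage in wild-type, where Rny1 rests on 20 reads, it gave 0.76 with ERCC scaling, 0.51 with the replicate block and -1.28 to 0.32 on leaving out embryos. For stage in null embryos, Rny1 gave 0.086 by DESeq2, 0.88 with ERCC scaling, 0.086 with no filter and -1.21 to 0.66 on leaving out embryos, and Vaultrc5 gave 0.16 with ERCC scaling and -2.14 to 0.21 on leaving out embryos. On leaving out embryos, interactions ranged from -0.016 to 1.22 for Rn7sk, -1.90 to 1.30 for Vaultrc5, -0.035 to 4.52 for Rny1 and -2.94 to 0.90 for Rpph1. The causes were not tested.

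Genes called of all tested were 769 for null over het, with 1784 by DESeq2, 4776 with ERCC scaling and 1808 with no filter. They were 704 for null over wild-type, with 1663 by DESeq2 and 3409 with no filter, and 0 for het over wild-type, with 65 by DESeq2. At E2.5 there were 2, with 598, 1955 and 33 by DESeq2, ERCC scaling and no filter, and at E2.75 696, with 1678, 2494 and 1321, and 292 to 720 on leaving out embryos. For stage there were 1378 in wild-type, with 3277 under ERCC scaling, 2104 with no filter, 913 with the replicate block and 745 to 1530 on leaving out embryos, and 561 in null embryos, with 1380 by DESeq2, 2008 with ERCC scaling and 131 to 768 on leaving out embryos. The interaction gave 0, with 81 by DESeq2, 77 with no filter and 1 with the replicate block. ERCC scaling changed calls from 493 higher and 276 lower to 289 and 4487 for null over het, from 491 and 213 to 317 and 469 for null over wild-type, from 363 and 333 to 330 and 2164 at E2.75, from 698 and 680 to 3218 and 59 for stage in wild-type, and from 231 and 330 to 1969 and 39 for stage in null embryos.

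Embryos that share a replicate number did not deviate together, with correlations from -0.10 to 0.07, so the numbers do not pair them. With the block the Rpph1 stage difference in wild-type kept its call. Few reads limit Rny3, Rmrp and Vaultrc5, and multiple near copies limit Rn7sk.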
